A study of Homo sapiens with 15 samples.

Results

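The reported nuclear EGFR target genes are genes that earlier work named as being turned on by EGFR inside the nucleus. The set holds 8 of the 61552 genes listed in the counts table, namely CCND1, MYC, AURKA, MYBL2, TYMS, PTGS2, ABCG2 and NOS2, and its members were found by gene symbol and matched to their Ensembl identifiers. The rule uses no measured value, although the set was proposed with earlier results of these data known. RNA was sequenced from MDA-MB-468, an established line of human basal-like breast cancer cells with abundant EGFR, in 15 libraries of polyA RNA, 3 in each of 5 groups. In the drug experiment, cells went without serum for 12 h, then received EGF at 10 ng/mL and were kept for 12 h without a drug (EGF), with 10 μM of the peptide cSNX1.3 (cSNX in the labels), which keeps EGFR from its carrier Sorting Nexin 1, or with 15 μM of the EGFR kinase inhibitor erlotinib (ERL), so all 3 groups received EGF. In the line experiment, endogenous EGFR was knocked down with a lentiviral shRNA induced by IPTG, and cells were then transfected with EGFR-GFP that was wildtype (shEGFR-WT, here WT) or carried aspartic acids in its nuclear localization sequence (shEGFR-NLS, here ΔNLS), and both lines were treated with EGF. The EGF dose and the number of clones behind each line are not given in the sources used here, and the EGFR of these lines is an introduced copy. The labels do not say whether replicates came from separate cultures, so p-values measure the spread between these libraries, which may be technical.

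EGFR is a receptor tyrosine kinase that signals from the cell surface through RAS and ERK and through other routes. Part of it is also carried from the membrane through the endoplasmic reticulum into the nucleus, where it has no DNA-binding domain of its own and is thought to reach promoters through partners such as STAT3, STAT5, E2F1 and RNA helicase A (DHX9). The genes reported as its targets serve entry into the cell cycle (CCND1, MYC), DNA synthesis (TYMS), cell division (MYBL2, AURKA), prostaglandin and nitric oxide synthesis (PTGS2, NOS2) and drug export (ABCG2).

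AURKA, MYBL2 and TYMS all rose in the ΔNLS line in the results below, and RefSeq promoter entries (GRCh38.p14), which were matched for 4 of the 8 genes, held MYBL2 and TYMS. Their promoter stretches are shown because they held sites of the kind that E2F1, one of the partners, binds. In the 250 bases before each start, the letters TTGGCG and TTCCCG (cores of E2F sites), TTTGAA (the CHR element of cell cycle genes), TNTTT (an AT-rich element) and TTCNNNGAA (the form that STAT proteins bind) were searched on both strands. Capitals mark the matches to the E2F cores, 5′ to 3′ on the plus strand. Positions are counted from the RefSeq start, and GENCODE 44 starts MYBL2 further upstream, so the last 95 bases of its window lie inside the GENCODE gene. The MYBL2 stretch shown, at chr20:43667061-43667090, is 30 bases of that part. The TYMS stretch, at chr18:657403-657652, lies wholly within the antisense gene TYMSOS.
MYBL2: gcgccgacgcgcTTGGCGggagatagaaaa
TYMS: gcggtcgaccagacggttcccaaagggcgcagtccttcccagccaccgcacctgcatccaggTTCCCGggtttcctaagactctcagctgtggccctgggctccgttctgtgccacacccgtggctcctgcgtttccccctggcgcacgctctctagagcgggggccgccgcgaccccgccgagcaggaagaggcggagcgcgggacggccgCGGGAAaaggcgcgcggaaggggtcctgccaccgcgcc
MYBL2 held TTGGCG 41 to 36 bases before its RefSeq start, which is inside the gene by the GENCODE start, a motif found in 7.45% of 35114 promoter windows of the same length. TYMS held TTCCCG 188 to 183 bases before its start and, on the other strand, 38 to 33 bases before it, and 13.7% of all windows held that motif at least once. Neither of these windows held the CHR, AT-rich or STAT letters, which were found in 13.3%, 70.6% and 6.57% of windows. The other matched genes, PTGS2 (1 entry) and ABCG2 (5 entries), held neither E2F core. PTGS2 held AT-rich letters, and some entries of ABCG2 held AT-rich, CHR or STAT letters. These matches describe the letters only, and no binding was measured.

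Of the 8 genes, 5 were expressed and 3 were not detected or nearly so. Per length of their annotated exons, and on the scale of CPM (counts brought to a common library size with TMM) per kilobase, the mean level over the 15 libraries was 68.7 for MYBL2, 42.2 for TYMS, 37.7 for AURKA, 30.3 for CCND1 and 19.0 for MYC. PTGS2, the inducible cyclooxygenase that starts prostaglandin synthesis, had 0 counts in all 15 libraries. ABCG2, which pumps drugs out of the cell, had 7 counts in all, with 1, 1 and 2 in the WT libraries, 2 in cSNX1.3 replicate 2 and 1 in ΔNLS replicate 3. NOS2, the inducible nitric oxide synthase, had 1 count in erlotinib replicate 3 and 1 in ΔNLS replicate 1. A count of 0 allows up to 3 counts, which is 0.0829 to 0.137 CPM in these libraries and covers counting error only. These 3 genes were left out by the filter on low counts, so they were not tested, and no difference was detectable at this depth.

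Library totals ran from 22915676 to 35900649 counts with a median of 27846664. Of the 9 markers of basal breast epithelium, 8 or 9 had a mean over 1 CPM in every group, with KRT5 at 1600 to 6110 CPM. Of the 9 luminal markers 7 were over 1 CPM in every group, with KRT8 at 2460 to 9200 CPM and ESR1 at 2.79 to 8.41 CPM, while PGR was at 0 in all 15 libraries. Of the 7 fibroblast markers COL1A1 (8.25 to 21.3 CPM) and FAP (1.45 to 33.0 CPM) were over 1 CPM and DCN was at 0 in all libraries, and of the 8 leukocyte markers only CD14 was over 1 CPM and PTPRC, the pan-leukocyte gene, had at most 7 counts. Summed over each list, basal markers were at 11900 to 14100 CPM in EGF, 14700 to 17000 in cSNX1.3, 7440 to 8140 in erlotinib, 6350 to 6990 in WT and 5120 to 6050 in ΔNLS. Luminal markers were at 11800 to 15500 CPM in EGF, 13500 to 17600 in cSNX1.3, 7230 to 8620 in erlotinib, 15800 to 18300 in WT and 9450 to 11600 in ΔNLS. Fibroblast markers were at 19.3 to 21.7 CPM in EGF, 22.9 to 23.8 in cSNX1.3, 13.5 to 17.3 in erlotinib, 36 to 44 in WT and 16.8 to 18.1 in ΔNLS. Leukocyte markers were at 13.8 to 18.9 CPM in EGF, 9.41 to 13.5 in cSNX1.3, 38.0 to 41.9 in erlotinib, 25.7 to 37.1 in WT and 37.9 to 42 in ΔNLS, and endothelial markers were between 8.68 and 16.8 CPM over all groups. The basal list includes EGFR, the gene knocked down and introduced in the lines, so the basal sums contain the EGFR levels given next. The marker sums thus moved with the groups compared below, and their part in the results was not tested. EGFR itself was at 4730 ± 360 CPM in EGF (SD, n = 3), 6139 ± 371 in cSNX1.3, 4704 ± 246 in erlotinib, 1339 ± 168 in WT and 1725 ± 33.6 in ΔNLS. EGFR counts were thus lower in the lines than in the drug groups, which belong to a separate experiment. Reads of the endogenous and the introduced gene were counted together. Whether the introduced copy carries the untranslated parts of the EGFR RNA is not given in the sources used here. A copy without them would give fewer counts per transcript, so these counts do not show fewer EGFR transcripts in the lines. ΔNLS held 1.29 times as much EGFR as WT (log2 fold change 0.37, edgeR adjusted p = 0.00367). The higher EGFR level in cSNX1.3 than in EGF did not pass (0.38, edgeR adjusted p = 0.0622).

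**Figure D1:**
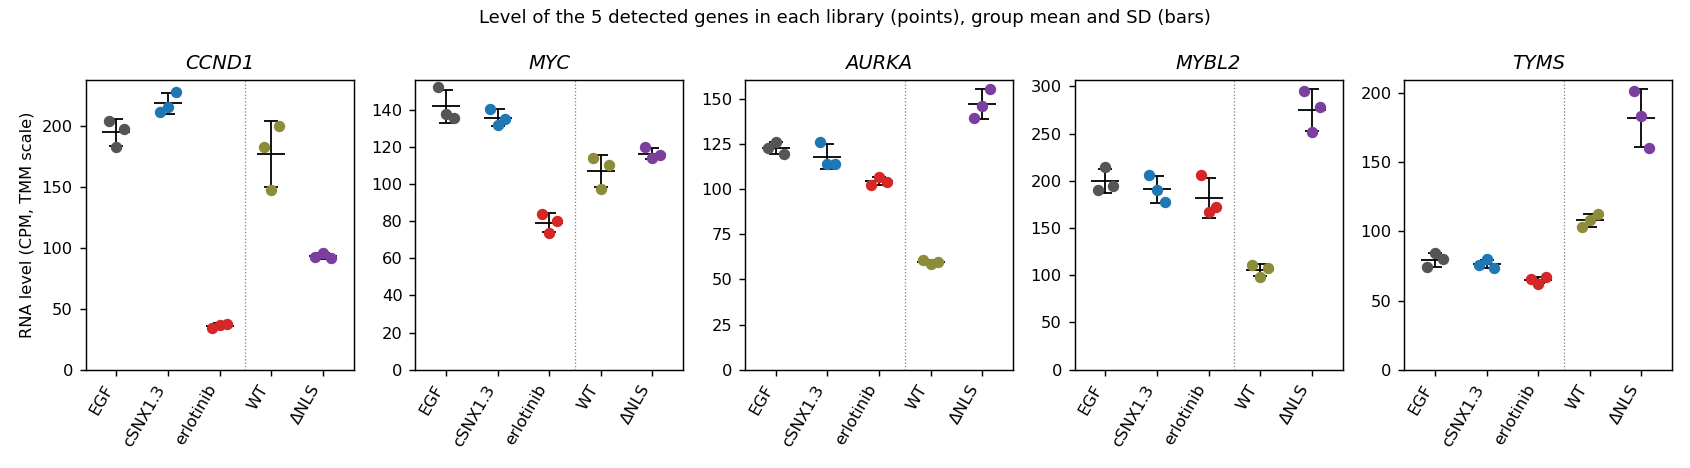
Level of each of the 5 expressed genes in CPM on the TMM scale (vertical axes start at 0) in the 5 groups, with 1 point per library and bars for the mean and SD of 3 libraries; the dotted line separates the drug experiment from the line experiment. EGF and cSNX1.3 lie close together in every panel, CCND1 and MYC are lowest in erlotinib, and AURKA, MYBL2 and TYMS are highest in ΔNLS.

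CCND1 encodes cyclin D1, which activates CDK4 and CDK6 at the start of the cell cycle and is the best known of the reported targets. Its level was 204, 183 and 198 CPM in the 3 EGF libraries, 212, 216 and 229 CPM in cSNX1.3 and 34.1, 37.0 and 37.9 CPM in erlotinib. The cSNX1.3 libraries all lay slightly above the EGF libraries, and the erlotinib libraries lay far below both. In the line experiment it was 183, 148 and 200 CPM in WT and 92.5, 96.1 and 92.1 CPM in ΔNLS, and these groups did not overlap.

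MYC encodes the transcription factor that drives ribosome building and growth. Its level was 152, 137 and 136 CPM in EGF, 140, 132 and 135 CPM in cSNX1.3 and 83.7, 73.6 and 79.95 CPM in erlotinib. EGF and cSNX1.3 overlapped, and erlotinib was lower in all 3 libraries. The WT libraries held 114, 97.3 and 110 CPM and the ΔNLS libraries 120, 114 and 115 CPM, and the lowest ΔNLS library was level with the highest WT library.

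AURKA encodes the Aurora A kinase of the spindle poles. It was at 123, 126 and 119 CPM in EGF, at 126, 114 and 114 CPM in cSNX1.3 and at 102, 107 and 104 CPM in erlotinib. The WT libraries, at 60.7, 58.5 and 59.4 CPM, were the lowest of all, and the ΔNLS libraries, at 140, 146 and 156 CPM, the highest.

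MYBL2 encodes B-MYB, which joins the MuvB complex to switch on genes of mitosis. Its level was 191, 215 and 194 CPM in EGF, 206, 190 and 177 CPM in cSNX1.3 and 206, 167 and 172 CPM in erlotinib, 3 groups that overlapped. It was 111, 98.5 and 108 CPM in WT against 296, 252 and 278 CPM in ΔNLS, with a wide gap between the lines.

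TYMS encodes thymidylate synthase, which makes the thymidine nucleotide for DNA and is the target of fluorouracil. It was at 74.2, 84.0 and 79.95 CPM in EGF, 76.0, 79.8 and 73.9 CPM in cSNX1.3 and 65.8, 62.1 and 66.8 CPM in erlotinib, with erlotinib below every other drug library. The WT libraries held 103, 108 and 112 CPM and the ΔNLS libraries 202, 183 and 160 CPM.

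The order of the 5 groups therefore differed between the genes. CCND1 ran cSNX1.3, EGF, WT, ΔNLS, erlotinib from high to low, with EGF and WT overlapping. MYC ran EGF, cSNX1.3, ΔNLS, WT, erlotinib, with the first pair overlapping. AURKA and MYBL2 ran ΔNLS, EGF, cSNX1.3, erlotinib, WT, where EGF overlapped cSNX1.3 for both and cSNX1.3 overlapped erlotinib for MYBL2. TYMS ran ΔNLS, WT, EGF, cSNX1.3, erlotinib, with EGF and cSNX1.3 overlapping. Experiment and cell line change together between the drug and line groups, so levels of one experiment against the other cannot be told apart from the experiment itself.

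The first question was whether the peptide cSNX1.3 moved these genes. The study reports that it lowers nuclear EGFR, as tracked in T47D breast cancer cells. Nuclear EGFR was not measured in the libraries used here, and no group received a control peptide. In cSNX1.3 vs. EGF, 0 of the 5 tested genes passed the test, where 6.07% of the 15738 genes tested did, 3.38% higher and 2.69% lower. Without adjustment for the number of genes, edgeR gave 0 of the 5 under 0.05 and DESeq2 gave 1, CCND1, while DESeq2 gave 0 after adjustment. The fitted log2 fold change of CCND1 was 0.17 (SE 0.0864, edgeR adjusted p = 0.301), a value toward higher expression. For MYC it was -0.06 (SE 0.0853, edgeR adjusted p = 0.765), for AURKA -0.06 (SE 0.0796, edgeR adjusted p = 0.766), for MYBL2 -0.06 (SE 0.0965, edgeR adjusted p = 0.791) and for TYMS -0.05 (SE 0.0824, edgeR adjusted p = 0.807). The 95% intervals of the fold were 0.991 to 1.28 for CCND1, 0.846 to 1.09 for MYC, 0.855 to 1.08 for AURKA, 0.831 to 1.10 for MYBL2 and 0.856 to 1.09 for TYMS. The lowest of these bounds is that of MYBL2 and the highest that of CCND1, and the intervals do not show that the levels were equal. The median log2 fold change of the 5 genes was -0.06, beside 0.002 over all genes tested.

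Erlotinib was compared with the same EGF libraries to ask what inhibition of the kinase did. In erlotinib vs. EGF 4 of the 5 genes fell, where 44.0% of all genes tested passed the test in either direction and 21.2% fell. CCND1 had the largest change, a log2 fold change of -2.42 (SE 0.0922, edgeR adjusted p = 3.76e-11), and MYC followed with -0.83 (SE 0.0862, edgeR adjusted p = 1.5e-06). TYMS fell by 0.28 on the log2 scale (SE 0.0824, edgeR adjusted p = 0.0117). AURKA fell by 0.22 on the log2 scale (SE 0.0796, edgeR adjusted p = 0.0316), and this call was lost in 7 of 16 other ways of fitting the data: with no filter on low counts (adjusted p = 0.0726), with the replicate number as a block (0.0568), and without EGF replicate 1 (0.083), 2 (0.0631) or 3 (0.0637) or erlotinib replicate 1 (0.0659) or 3 (0.0818). MYBL2 had a log2 fold change of -0.13 (SE 0.0964, edgeR adjusted p = 0.299). In bulk RNA, a smaller number of cells that express a gene and less of its RNA in each cell cannot be told apart.

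ΔNLS was compared with WT to ask how the line with the mutated localization sequence differed in the same genes. The mutation cannot be told apart from other differences between the lines. AURKA, MYBL2 and TYMS rose and CCND1 fell, 4 of the 5 genes, where 41.4% of the 15805 genes tested passed the test, 20.4% higher and 21.0% lower. AURKA was 2.47-fold higher (log2 fold change 1.304, SE 0.0689, edgeR adjusted p = 5.55e-10), MYBL2 2.60-fold higher (log2 fold change 1.38, SE 0.0758, edgeR adjusted p = 8.14e-10) and TYMS 1.68-fold higher (log2 fold change 0.75, SE 0.0817, edgeR adjusted p = 1.86e-06). CCND1 fell by 0.92 on the log2 scale (SE 0.0906, edgeR adjusted p = 6.13e-07). For MYC the value was 0.12 (SE 0.0718, edgeR adjusted p = 0.204). The EGFR RNA of ΔNLS was also higher, as given above, and its part in these differences was not tested. The median of the 5 genes was 0.75, beside 0.006 over all genes tested.

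**Figure D2:**
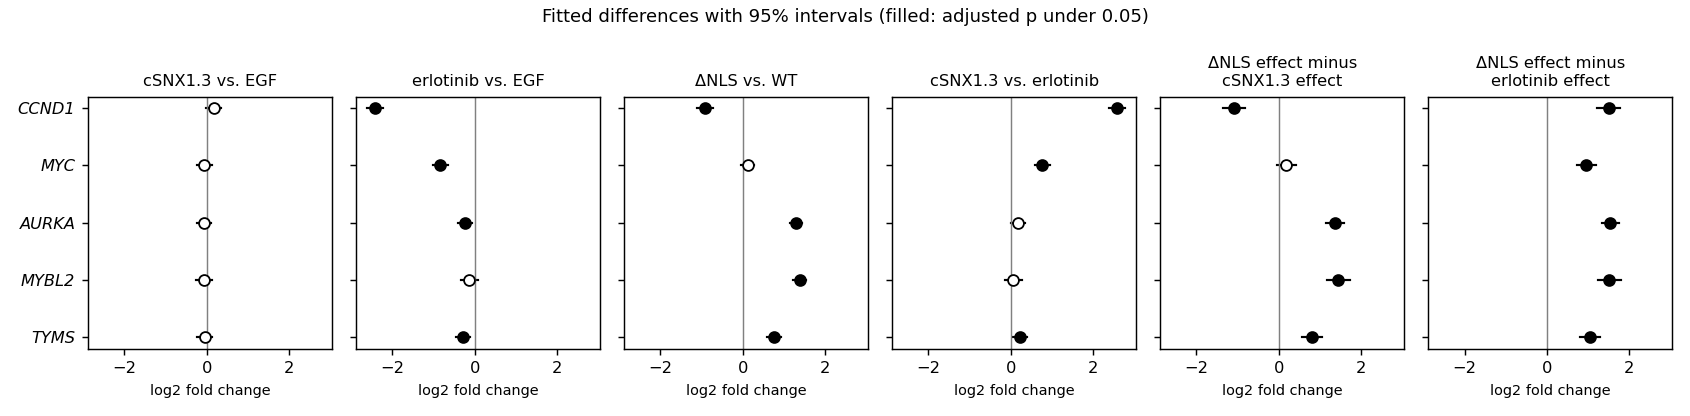
Fitted log2 fold change (horizontal axis, 0 marked by a line) of the 5 expressed genes in 4 comparisons and in 2 differences between comparisons, with 95% intervals; filled points have an adjusted p under 0.05. All 5 points are open in cSNX1.3 vs. EGF, 4 are filled to the left in erlotinib vs. EGF, and in ΔNLS vs. WT 3 are filled to the right and CCND1 to the left.

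The drugs were also set against each other directly. In cSNX1.3 vs. erlotinib 3 of the 5 genes were higher, where 56.1% of all genes tested passed in either direction, 27.6% higher and 28.5% lower. The log2 fold change was 2.58 for CCND1 (edgeR adjusted p = 5.47e-12), 0.77 for MYC (edgeR adjusted p = 1.73e-06) and 0.23 for TYMS (edgeR adjusted p = 0.0258). The TYMS call was lost with no filter on low counts (adjusted p = 0.0808) and without cSNX1.3 replicate 2 (0.109) or erlotinib replicate 2 (0.062). AURKA had 0.17 (edgeR adjusted p = 0.0848) and MYBL2 0.07 (edgeR adjusted p = 0.579).

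Whether ΔNLS vs. WT differed from cSNX1.3 vs. EGF was tested in a fit of all 15 libraries as the ΔNLS effect minus the cSNX1.3 effect. Of the 5 genes 4 passed, where 23.1% of 16524 genes did, with the ΔNLS effect higher for AURKA, MYBL2 and TYMS and lower for CCND1. The difference was 1.36 for AURKA, 1.45 for MYBL2, 0.81 for TYMS and -1.09 for CCND1 on the log2 scale, and for MYC it was 0.18 (edgeR adjusted p = 0.271). For the ΔNLS effect minus the erlotinib effect 5 of 5 genes passed and were higher, where 44.7% of genes passed, 22.6% higher and 22.1% lower. CCND1 fell in both ΔNLS and erlotinib, and its fall was smaller in ΔNLS by 1.504 on the log2 scale (edgeR adjusted p = 1.17e-08). The lines and the drug groups were separate experiments, so these differences set unlike designs side by side.

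**Figure D3:**
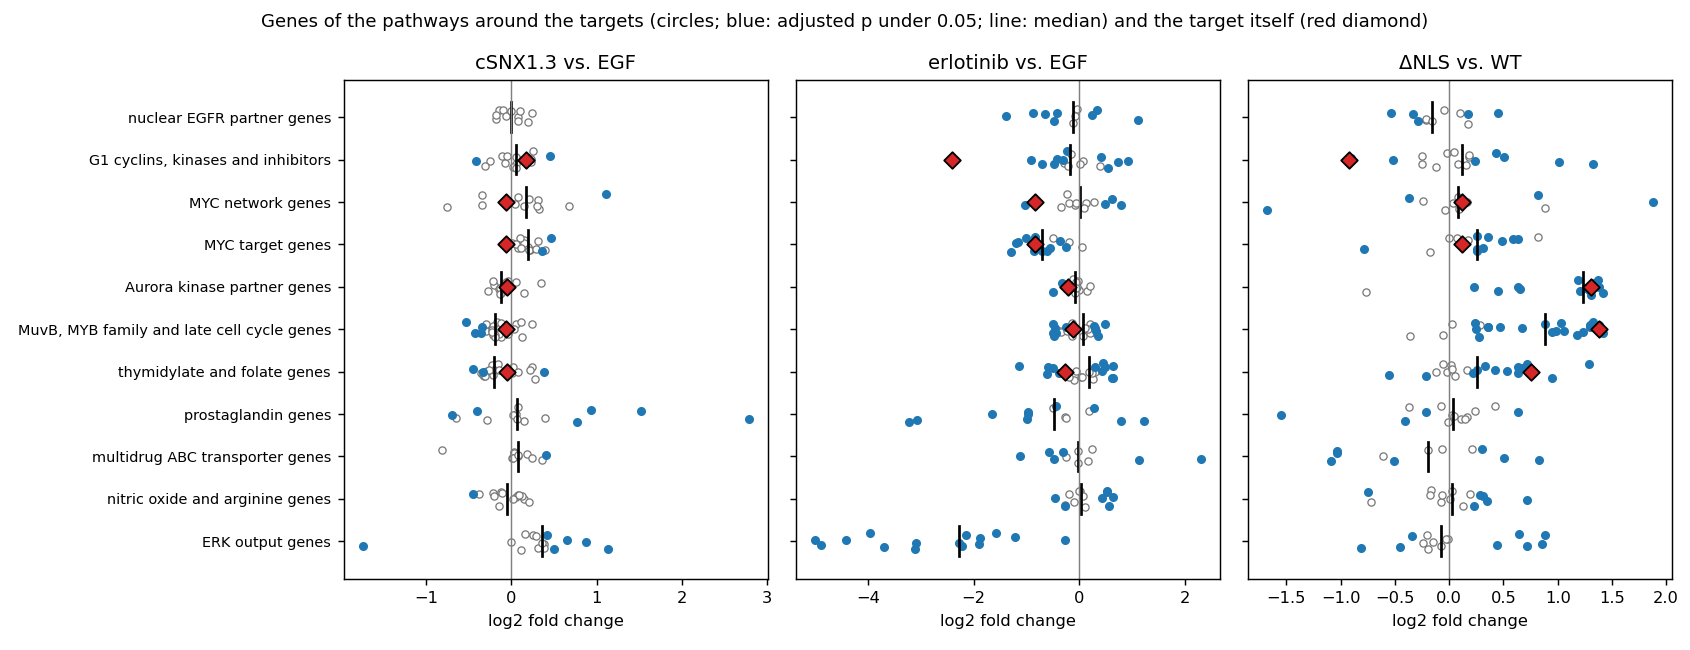
Fitted log2 fold change (horizontal axes, whose ranges differ between the panels) of the genes of 11 lists around the targets (rows), with 1 circle per gene, filled blue where the adjusted p is under 0.05, a black line at the median of the list and a red diamond for the target gene that the list belongs to. The Aurora kinase partner genes and the late cell cycle genes lie to the right in ΔNLS vs. WT, and the ERK output genes lie to the left in erlotinib vs. EGF.

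The genes that work with each target were counted in lists written by hand from general knowledge, with the members themselves left out. For scale, 6.07% of all genes tested passed in cSNX1.3 vs. EGF, 44.0% in erlotinib vs. EGF and 41.4% in ΔNLS vs. WT. Around CCND1 stand the G1 cyclins, kinases and inhibitors, of which 16 of 17 were tested. In cSNX1.3 CDK6 rose (log2 fold change 0.45) and the inhibitor CDKN2C fell (-0.42), 12.5% of the list. In erlotinib 4 rose and 6 fell (62.5%), with falls of the cyclin genes CCNE1 (-0.92), CCND3 (-0.71) and CCNE2 (-0.47) and rises of the inhibitors CDKN2B (0.92) and CDKN2C (0.74). In ΔNLS 5 rose and 2 fell, a share of 43.8% that is close to that of all genes, among them the inhibitors CDKN2D (1.33) and CDKN2C (1.01), which rose, and CDKN2B (-0.91), which fell. The ERK output genes, which report signalling through the kinase, had 15 of 15 falling in erlotinib, their median being -2.29, including DUSP6 (-4.89), SPRY4 (-5.00) and FOSL1 (-4.41). In cSNX1.3 5 of these 15 rose, FOSL1 (1.13), PHLDA1 (0.88) and DUSP6 (0.65) the most, and EGR1 fell (-1.75), and in ΔNLS 5 rose and 3 fell (53.3%).

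Around MYC, 15 of 16 target genes of the factor were tested. In erlotinib 12 of them (80%) fell and 0 rose, the median being -0.72 on the log2 scale, and the largest falls were those of LDHA (-1.30), BOP1 (-1.21) and PPAN (-1.17), of which the last pair serve ribosome building. In cSNX1.3 BOP1 (0.46) and NOP16 (0.35) rose and no other passed. In ΔNLS, where the value of MYC itself did not pass, 8 rose, including PPAN (0.63) and ODC1 (0.59), and LDHA fell (-0.79), in all 60% of the list. In the network of MYC's relatives and rivals, 12 genes were tested and 1 passed in cSNX1.3, MYCL (1.11). In erlotinib 3 rose and 1 fell (33.3%), all of the MXD group that competes with MYC for its partner MAX, with rises of MXD4 (0.79), MXD3 (0.61) and MXI1 (0.49) and a fall of MXD1 (-1.03). In ΔNLS 2 rose and 2 fell (33.3%), with rises of MXD3 (1.88) and MYCN (0.82) and falls of MYCL (-1.68) and MXD4 (-0.37).

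Around AURKA, 13 of the 14 listed genes (92.9%) rose in ΔNLS vs. WT, the median being 1.23 on the log2 scale. The list holds genes that act with AURKA, its relatives, partners of AURKB and other genes of mitosis such as BUB1 and CDC20. AURKB (1.42), INCENP (1.38) and BIRC5 (1.37), which form the chromosomal passenger complex, rose the most, and AURKC did not pass (-0.77, edgeR adjusted p = 0.083). None passed in cSNX1.3 vs. EGF, where edgeR gave 1 gene at an unadjusted p under 0.05 and DESeq2 gave 0 genes adjusted and 1 unadjusted. In erlotinib INCENP (-0.50) and TACC3 (-0.34) fell, 14.3% of the list. Of the 23 MuvB, MYB family and late cell cycle genes around MYBL2, 19 (82.6%) rose and 0 fell in ΔNLS, with FOXM1 (1.42), CDC25C (1.38) and TOP2A (1.33) the most. In cSNX1.3 0 rose and 4 fell (17.4%), among them E2F2 (-0.53), CDC25C (-0.43) and CCNB2 (-0.35). In erlotinib 5 rose and 6 fell, 47.8% of the list against 44.0% of all genes.

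Around TYMS, 21 genes of thymidylate and folate metabolism were tested. In ΔNLS 12 rose and 2 fell (66.7%), and TK1, the salvage kinase for thymidine (1.28), RRM2, a subunit of ribonucleotide reductase (0.95), and SHMT2 (0.74) rose the most. RRM2 fell in both cSNX1.3 (-0.34) and erlotinib (-0.60). The folate carrier SLC19A1 fell in erlotinib (-1.14), where 7 of the list rose and 5 fell (57.1%), and in cSNX1.3 1 rose and 2 fell (14.3%).

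Around the 3 targets without measurable RNA, some genes were expressed and others were left out by the filter on low counts. Of 20 prostaglandin genes 14 were tested. PTGS1, the constitutive cyclooxygenase, rose in cSNX1.3 (1.53) and in erlotinib (0.79) at a mean of 2.73 CPM over the 9 drug libraries. PTGES, a prostaglandin E synthase, fell in cSNX1.3 (-0.40), rose in erlotinib (1.21) and fell in ΔNLS (-0.41), and the transporter SLCO2A1 rose in cSNX1.3 (0.77) and fell in erlotinib (-3.22). In all, 4 of these genes rose and 2 fell in cSNX1.3 (42.9%), 3 rose and 7 fell in erlotinib (71.4%), and 1 rose and 3 fell in ΔNLS (28.6%). Of 14 multidrug transporter and related genes 11 were tested, and ABCA3 (0.41) alone passed in cSNX1.3. MVP, which is on this list, encodes the major vault protein and is not a transporter. In erlotinib 2 rose and 4 fell (54.5%), with falls of ABCC3 (-1.12), ABCC1 (-0.58) and ABCC5 (-0.49). In ΔNLS 3 rose and 4 fell (63.6%), with rises of ABCG1 (0.83), ABCA2 (0.51) and ABCC5 (0.30) and falls of ABCB1 (-1.09), MVP (-1.03) and ABCC2 (-1.03). Of the nitric oxide and arginine genes 14 were tested in the drug fit and 15 in the line fit. The other nitric oxide synthase genes were low or absent, since NOS1 was tested in neither fit and NOS3 only in the line fit, at a mean of 0.376 CPM. In cSNX1.3 0 rose and 1 fell, and in erlotinib 5 rose and 2 fell (50%), ASS1, which makes the precursor of arginine, among the rises (0.52). In ΔNLS 5 rose and 1 fell (40%), the fall being that of CAT (-0.75). CAT encodes catalase, which acts on hydrogen peroxide and not on nitric oxide or arginine, and it was also among the erlotinib rises (0.52). These counts thus include a gene from outside the pathway.

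The partners through which nuclear EGFR is thought to work, or which carry it there, made up 11 genes, all tested. None passed in cSNX1.3 vs. EGF, where edgeR and DESeq2 each gave 2 genes at an unadjusted p under 0.05 and DESeq2 gave 0 adjusted. In erlotinib 3 rose, MUC1 (1.10), STAT5A (0.33) and SNX1 (0.25), and 5 fell, with CTNNB1 (-1.38), PKM (-0.88) and SEC61B (-0.66) the most, 72.7% of the list. E2F1 (0.45) and DHX9 (0.18) rose in ΔNLS, and MUC1 (-0.53), SNX1 (-0.34) and CTNNB1 (-0.29) fell, 45.5% of the list.

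Of the 13397 genes that averaged 1 CPM or more, those whose pattern was most like each target were found by the root mean square difference in log2 CPM over the 15 libraries, each experiment centred on its control group. For MYBL2 they were PLK1, CDCA3 and UBE2C, each at 0.073, and for AURKA they were BUB1 (0.083), CDCA8 (0.090) and TPX2 (0.091), all genes of mitosis. TYMS was closest to UNK (0.099), CDCA4 (0.1) and EZH2 (0.1), and MYC to PIM2 (0.069), SRF (0.071) and EWSR1 (0.077). For CCND1 the distances were larger, its nearest genes being OLFML3 (0.222), ELFN2 (0.258) and CCL22 (0.258). The measure is not scaled, so genes with large changes tend to have larger distances. OLFML3 had mean differences from the control group of 0.04 in cSNX1.3, -2.27 in erlotinib and -0.78 in ΔNLS. Among the targets, AURKA and MYBL2 were the closest pair at 0.113 and CCND1 and MYBL2 the farthest at 1.45. These likenesses are descriptions over libraries that share their groups.

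Some counts may be affected by overlapping genes, since strand was not used. Whether read pairs in shared bases were assigned or dropped is not given in the sources used here. The levels per kilobase above divide by all exon bases, the shared ones included. If such pairs were dropped, the level of TYMS per kilobase is too low. In GENCODE 44 on GRCh38, CCND1 (chr11:69641156-69654474, plus strand) shares 497 exon bases with LTO1 on the other strand, and TYMS (chr18:657653-673578, plus strand) shares 193 with TYMSOS and 967 with ENOSF1. LTO1, at 24.2 CPM in EGF, fell in erlotinib (log2 fold change -0.45, edgeR adjusted p = 0.0222) and rose in ΔNLS (0.51, edgeR adjusted p = 0.00064), in this last comparison opposite to CCND1. TYMSOS rose in ΔNLS (1.005, edgeR adjusted p = 3.78e-07) and in erlotinib (0.67, edgeR adjusted p = 0.0047), and stood at 8.76 CPM in WT and 17.6 CPM in ΔNLS. ENOSF1 rose in ΔNLS (0.22, edgeR adjusted p = 0.0128) and stood at 73.4 CPM in WT and 85.5 CPM in ΔNLS. The antisense neighbours of MYC and PTGS2, CASC11 and PACERR, had at most 5 counts and 0 counts in any library. AURKA (chr20:56369389-56392337, minus strand) and MYBL2 (chr20:43667019-43716495, plus strand) overlap no other annotated gene, and the AURKA pseudogene AURKAP1 had 3 counts in all.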

How the data were processed

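The 15 RNA libraries of MDA-MB-468 cells, 3 per group, were grouped by their sample labels. Per the study's methods, TrimGalore trimmed the reads, STAR placed them on GRCh38 and featureCounts counted read pairs per gene without strand, and the authors deposited these counts for 61552 Ensembl genes without normalization. The annotation release is not given in the sources used here. Of the identifiers, 61399 were matched to GENCODE 44 and 153 were not.

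The main tool was edgeR 4.0.16 (R 4.3.3). Scaling used TMM, filterByExpr by group removed low genes (15738 kept in the drug fit, 15805 in the line fit, 16524 in the fit of all libraries), and a robust quasi-likelihood test was applied with Benjamini-Hochberg adjustment over all genes tested and a threshold of 0.05. Drug comparisons came from a fit of 9 libraries, ΔNLS vs. WT from a fit of 6, and differences between comparisons from a fit of 15. Levels are CPM on a TMM scale over the 15 libraries, while fold changes come from each fit. Replicates differed by more than counting noise in every pair (chi-square over its degrees of freedom 2.69 to 24.5). The EGF pairs with replicate 2 gave 18.8 and 24.4, and the other EGF pair 3.58. The WT pairs with replicate 2 gave 15.8 and 19.2, and the other WT pair 2.69. The cSNX1.3 pairs with replicate 1 gave 15.6 and 22.5, and the other cSNX1.3 pair 5.86. The test was tested on simulated data first. The EGF libraries are shared by both drug comparisons and by the differences between comparisons.

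The genes named are the 8 targets, EGFR, genes overlapping a target, up to 3 rises and 3 falls per list and main comparison among called genes that averaged 1 CPM or more, and the 3 most alike genes per target. AURKC, NOS1, NOS3 and the marker genes were named outside this rule. Some genes that meet the rule are not reported here by name. The members and lists were chosen with earlier results of these data known. Alternatives were DESeq2 1.42.0, its size factors within edgeR, no filter, at least 10 counts in every library, other sets of libraries in the fit, the replicate number as a block and leaving out each replicate.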

Additional observations from a re-analysis of the deposited data

Results flagged for a closer look

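The ΔNLS effect (ΔNLS vs. WT) and the effect of a drug differed for several of the reported nuclear EGFR target genes. The difference itself was tested in edgeR's fit of all 15 libraries. The number of clones behind each line is not given, so the mutation cannot be told apart from other differences between the lines. Against the cSNX1.3 effect, the ΔNLS effect was higher by 1.36 on the log2 scale for AURKA (adjusted p = 2.41e-09), by 1.45 for MYBL2 (adjusted p = 4.26e-08) and by 0.81 for TYMS (adjusted p = 2.78e-05), and the difference for CCND1 was -1.09 (adjusted p = 1.85e-06). Against the erlotinib effect, it was higher by 1.504 for CCND1 (adjusted p = 1.17e-08), 0.96 for MYC (adjusted p = 6.98e-07), 1.54 for AURKA (adjusted p = 2.05e-10), 1.52 for MYBL2 (adjusted p = 1.03e-08) and 1.04 for TYMS (adjusted p = 4.89e-07). Each of the groups held 3 libraries, so no search for a single library far from its group was made.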

How the results depend on the processing

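The number of target genes called stayed within 1.5 times its value in each of the 6 comparisons under every alternative tried, and no log2 fold change of the 5 tested genes changed sign. The calls that changed were that of AURKA in erlotinib vs. EGF, lost in 7 of 16 alternatives with log2 fold changes from -0.24 to -0.20, that of TYMS in cSNX1.3 vs. erlotinib, lost in 3 of 16, and that of AURKA in cSNX1.3 vs. erlotinib, gained in the fit of all 15 libraries (adjusted p = 0.0411). The cause was not tested. The number of genes called among all genes tested ran from 526 to 1444 in cSNX1.3 vs. EGF, 5661 to 7718 in erlotinib vs. EGF and 5191 to 6578 in ΔNLS vs. WT. With the replicate number as a block, the calls among the targets were 0 in cSNX1.3 vs. EGF, 3 in erlotinib vs. EGF, 4 in ΔNLS vs. WT, 3 in cSNX1.3 vs. erlotinib, and 4 and 5 in the differences between the ΔNLS effect and those of cSNX1.3 and erlotinib. The numbers were not taken to pair the samples, since 2 of 9 same-numbered pairs correlated above 0.1 (range -0.35 to 0.38) and 2 of 9 treated or mutant libraries correlated best with their own number. PTGS2, ABCG2 and NOS2 were at or under 3 counts in every library, so depth limits what can be said of them.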
